A study of Mus musculus with 13 samples.

Results

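Microglia read the nucleotides around them through a small set of surface proteins, and 9 genes of that set were followed: the nucleotide receptors P2ry12, P2ry13, P2ry6, P2ry14, P2rx4 and P2rx7, the adenosine receptor gene Adora3, the ectonucleotidase gene Entpd1 and the lysophospholipid receptor gene Gpr34. They were taken by symbol, and all 9 were found among the 55487 genes of the deposited table. RNA came from CD11b bead-selected cells of whole mouse brain at postnatal day 4 per the titles (days 3 to 5 per the series text), from pups of dams with maternal immune activation (MIA) and from control pups (CON). There were 5 retained MIA and 5 retained CON libraries, and MIA 6, MIA 7 and CON 6 carry titles that mark them as excluded. The agent given to the dams, the strain, the sex, the litters and any pooling of pups were not given in the sources used here. In every library Xist had 0 counts and the Y-linked gene Ddx3y 1337 to 2191, the pattern of male RNA. Nothing says which libraries came from separate litters, so a p-value here measures only the spread between these libraries.

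Injured or active cells release ATP, which surface enzymes cut step by step to ADP, AMP and adenosine. ADP draws microglial processes toward damage through P2Y12, UDP acting on P2Y6 drives engulfment, and ATP opens the P2X channels. P2ry12 is also one of the genes by which microglia are told from other brain macrophages.

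All libraries held between 25387055 and 35593541 counts. The cells carried microglial RNA: all 21 genes of a microglia marker list, Csf1r, Cx3cr1 and Tmem119 among them, had counts in every library. Their summed level was 23835 to 30404 CPM in MIA and 36705 to 45891 in CON, where CPM is the usual count scaled to library size, here with TMM factors over the 13 libraries. All 21 fell in MIA. The 10 endothelial genes, led by the tight-junction gene Cldn5, all rose, with sums of 2545 to 4277 against 873 to 1411 CPM. Of 10 neuronal genes 4 rose and 0 fell, beside 5.75% and 4.58% of all genes. Their mean log2 CPM was 2.34 to 3.01 in MIA and 1.58 to 2.05 in CON. In the pericyte and fibroblast list 3 of 10 rose and in the oligodendrocyte lineage list 1 of 8, and 0 fell in either. The 8 genes of border-associated macrophages, such as Mrc1 and Lyve1, summed to 863 to 2316 against 1379.8 to 2222 CPM, each with an edgeR adjusted p of 0.686 or more. In CON 1 and CON 2 the mean log2 CPM of 18 dissociation-induced genes was 6.74 and 6.68, against 8.04 to 8.58 in the other 11 libraries. Erythroid genes in these libraries were at 1.58 and 2.07, against 5.89 to 7.09. In such bulk samples, fewer cells of a type and less RNA per cell cannot be told apart.

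Of the 9 purinergic genes, all tested, 7 fell in the MIA libraries and none rose with edgeR's quasi-likelihood test at a Benjamini-Hochberg adjusted p under 0.05: P2ry12, P2ry13, P2ry6, P2rx4, P2rx7, Adora3 and Entpd1. No member was higher at an unadjusted p under 0.05, nor with DESeq2 or limma-voom. Of all 15511 genes tested 4.58% fell and 5.75% rose. Since members and lists were chosen with earlier results of these data known, these shares are no independent yardstick for them. The changes of the 7 ran from −21.3% for Entpd1 to −39.2% for Adora3, with a median log2 fold change of −0.47 over the 9 members, beside −0.56 over the 21 microglia genes and −0.0085 over all genes. In P2ry13, P2ry6, P2rx7 and Adora3 the 5 MIA libraries lay below the 5 CON libraries without overlap, as they did in 4.36% of genes. The endothelial and neuronal lists moved the other way by 1.34 and 0.84 on the log2 scale in the same libraries. Their part in these values was not tested.

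When the libraries were instead scaled to the microglia marker list, which holds none of the 9, no member was lower in MIA, nor at an unadjusted p under 0.05. On that scale 0.0193% of genes were lower and 54.1% higher, with the median gene at 0.56 in log2. Entpd1 was at 0.22 ± 0.077 (SE, edgeR adjusted p = 0.0290) and P2ry14 at 0.80 ± 0.31 (adjusted p = 0.0419), both past the threshold. Entpd1 lay below the median gene, and P2ry14 lay above it by less than its SE. The other 7 lay between −0.16 for Adora3 and 0.15 for Gpr34, with adjusted p of 0.213 or more. Relative to the list P2ry14 ran from −7.86 to −6.33 in MIA and from −8.25 to −7.52 in CON, ranges that met. With all 13 libraries on that scale it was at 0.78 ± 0.30 (edgeR adjusted p = 0.0549).

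The number of members that fell was also taken under other settings, each with the share of all genes that fell there. It was 7 with RLE scaling (4.67% of genes lower), without a filter (2.23%), with a strict filter (7.33%), with limma-voom (4.61%) and with a replicate block (4.02%), 6 with total counts (3.2%), 8 with DESeq2 (6.92%) and 5 with the dissociation list as a covariate (4.98%). Without CON 1 and CON 2 it was 6 (5.38%), with all 13 libraries 2 (1.5%), and with all 13 except CON 1 and CON 2 it was 0 (0.231%), where 5 members and 9.15% of genes were lower at an unadjusted p under 0.05. Leaving out 1 control gave 8 without CON 1 (6.51%), 5 without CON 2 (2.93%) or CON 3 (3.21%), 7 without CON 4 (3.8%) and 4 without CON 5 (3.33%). Leaving out 1 MIA library gave 7 without MIA 1 (3.86%) or MIA 2 (4.04%), 4 without MIA 3 (3.58%) or MIA 4 (2.43%), and 3 without MIA 5 (2.32%). P2ry6, Adora3 and P2rx7 were called in all of these 10.

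**Figure D1:**
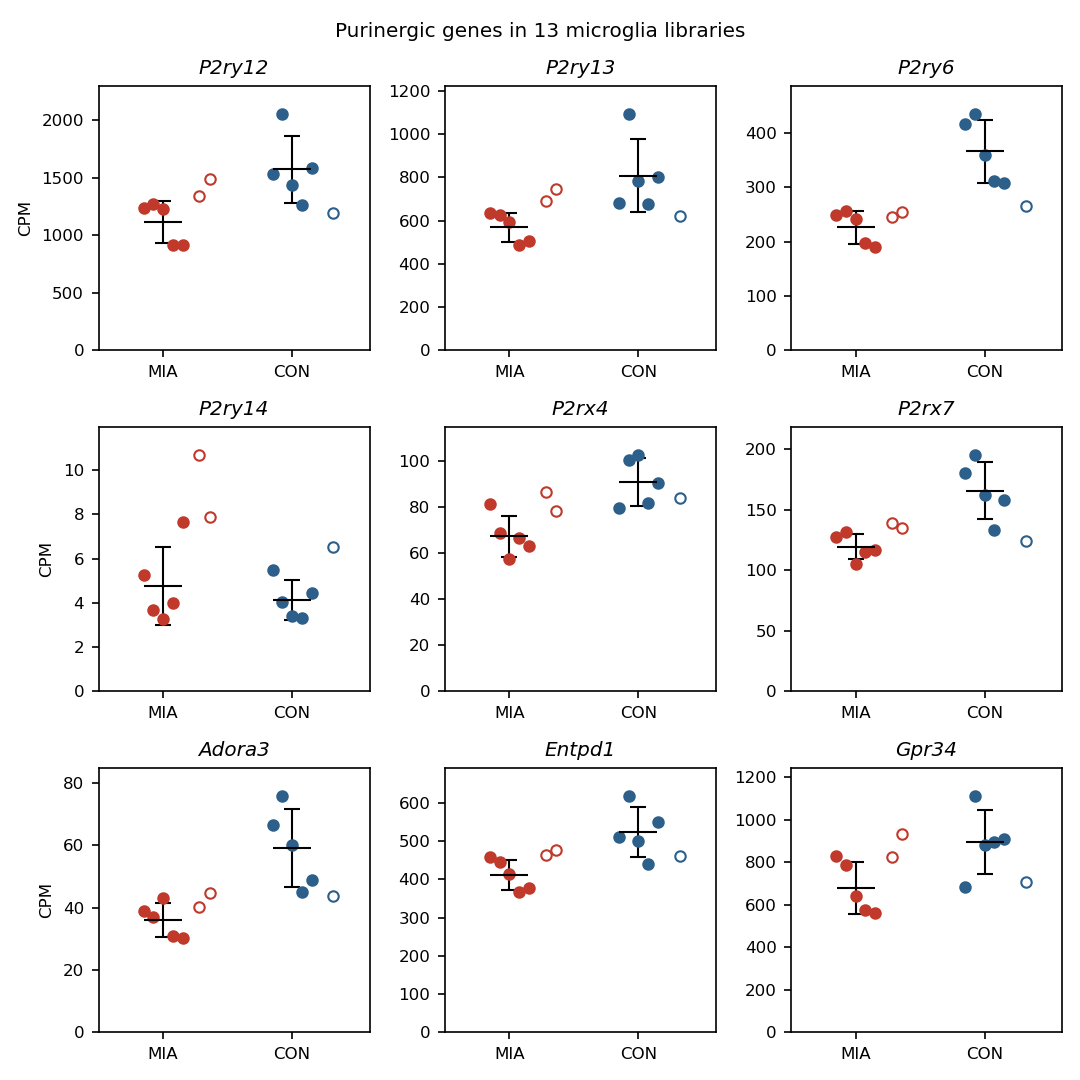
Level of each of the 9 genes in CPM in every library. Filled points are retained libraries (5 MIA, 5 CON), bars their mean ± SD, and open points the libraries marked excluded. P2ry13, P2ry6, P2rx7 and Adora3 show no overlap between the retained groups, and P2ry14 overlaps fully.

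P2ry12 and P2ry13 encode receptors for ADP that couple to inhibitory G proteins. With P2ry14 they form a cluster on chromosome 3, inside the Mediator subunit gene Med12l, which is read from the opposite strand. The libraries do not mark strand, so reads of a gene and of its antisense partner cannot be told apart where exons overlap. Med12l had 338 to 688 counts per library and a log2 change of −0.095 ± 0.16 (SE), which did not pass, beside 24514 to 56361 for P2ry12 and 95 to 327 for P2ry14. Every deposited value of P2ry12, P2ry13 and P2ry14 was whole.

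RefSeq lists 12 promoter windows for 7 of the 9 genes in the build GRCm38.p6, each 300 bases long and lying mostly before the annotated start. P2ry6 and Gpr34 are named only. The windows of the neighbours P2ry12, P2ry13 and P2ry14 are shown because the first 2 moved together and P2ry14 did not, and that of Adora3 because it fell most. They run 5′ to 3′ on the gene's strand, and capitals mark GAGGAA or its reverse complement, the core bound by the myeloid factor PU.1, searched on both strands.
P2ry12, chr3:59262936-59263235, minus strand: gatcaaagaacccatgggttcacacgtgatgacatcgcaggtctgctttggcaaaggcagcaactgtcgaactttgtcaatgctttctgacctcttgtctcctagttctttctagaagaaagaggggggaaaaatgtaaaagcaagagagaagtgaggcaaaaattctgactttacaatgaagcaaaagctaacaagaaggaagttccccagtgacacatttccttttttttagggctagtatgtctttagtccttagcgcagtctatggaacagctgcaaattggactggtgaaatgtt
P2ry13, chr3:59210833-59211132, minus strand: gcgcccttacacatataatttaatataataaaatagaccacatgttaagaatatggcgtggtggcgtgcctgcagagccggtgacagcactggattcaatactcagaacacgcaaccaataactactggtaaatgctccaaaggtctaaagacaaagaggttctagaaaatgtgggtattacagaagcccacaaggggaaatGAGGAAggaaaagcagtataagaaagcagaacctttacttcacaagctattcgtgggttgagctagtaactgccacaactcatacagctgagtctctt
P2ry14, chr3:59153443-59153742, minus strand: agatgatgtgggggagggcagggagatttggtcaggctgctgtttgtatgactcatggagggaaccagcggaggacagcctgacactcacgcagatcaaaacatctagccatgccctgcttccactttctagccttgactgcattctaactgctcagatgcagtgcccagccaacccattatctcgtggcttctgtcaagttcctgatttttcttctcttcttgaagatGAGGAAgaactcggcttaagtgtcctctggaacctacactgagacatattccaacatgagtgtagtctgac
Adora3, chr3:105904171-105904470, plus strand: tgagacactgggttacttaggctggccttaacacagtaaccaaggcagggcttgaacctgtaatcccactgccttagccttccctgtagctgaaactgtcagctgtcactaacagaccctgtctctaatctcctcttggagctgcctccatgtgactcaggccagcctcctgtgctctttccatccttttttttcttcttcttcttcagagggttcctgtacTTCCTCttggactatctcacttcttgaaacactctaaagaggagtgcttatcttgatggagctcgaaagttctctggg
The match begins 48 bases before the annotated start in P2ry13, 21 before it in this first of 4 windows of P2ry14, and 28 before it in Adora3, where it lies on the other strand. The P2ry12 window holds no match. Of the 12 windows, 9 held the motif, beside 28.3% of 32817 RefSeq windows of that length. All 4 windows of P2ry14 are among the 9. Windows 2 and 3 of P2ry14 overlap and hold the same site, which was counted in both, so the windows are not independent. By gene, the motif was in 5 of the 7, and no share of genes was taken for the RefSeq windows to set beside it. A match is a description of the letters and not a binding site.

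P2ry12 stood at 1239.7, 1273, 1232, 921 and 915 CPM in MIA 1 to 5, and at 1534, 2053, 1438, 1268 and 1585 CPM in CON 1 to 5. MIA 4 and MIA 5 were the lowest of the 10 and CON 2 the highest, and the groups met, since MIA 2 was above CON 4. The means were 1116 ± 181 CPM in MIA and 1576 ± 293 in CON (SD, n = 5 each), and the log2 change was −0.50 ± 0.14 (SE, adjusted p = 0.0353 by edgeR). The libraries marked excluded held 1342 in MIA 6, 1495 in MIA 7 and 1193 in CON 6, so that both such MIA libraries were above every retained MIA library and the CON library was below every retained CON one. P2ry12 lost its call when CON 2, CON 5 or any of MIA 3 to 5 was left out (adjusted p up to 0.107). The call was also lost without CON 1 and CON 2 together (adjusted p = 0.0787) and with the dissociation list as a covariate (adjusted p = 0.0514). With all 13 libraries it was at −0.33 (adjusted p = 0.177).

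P2ry13 followed P2ry12 closely. It had 635, 625, 592, 489.6 and 507 CPM in MIA 1 to 5 and 679.7, 1092, 786, 679 and 800.5 CPM in CON 1 to 5. CON 2 again stood above the rest, and the highest MIA library, MIA 1, was below the lowest CON library, CON 4. In log2 this was −0.50 ± 0.13 (SE, adjusted p = 0.0265 by edgeR), and −0.34 with all 13 libraries (adjusted p = 0.140). Its call was lost on removing CON 3, CON 5 or any of MIA 3 to 5 (adjusted p up to 0.0872). P2ry13 in the excluded libraries was 692 in MIA 6, 749 in MIA 7 and 623 in CON 6 CPM, above every retained MIA library in both MIA cases and below every retained CON library in the other. The ratio of P2ry12 to P2ry13 CPM within a library was 1.95 ± 0.112 in MIA and 1.96 ± 0.173 in CON (SD, n = 5 each).

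P2ry6, the receptor gene for UDP, whose product couples to Gq and promotes phagocytosis by microglia, fell further. Its levels were 249, 256, 242, 197 and 190.4 CPM in MIA 1 to 5, and 416, 435, 360.0, 312 and 309 CPM in CON 1 to 5. All 5 MIA libraries were below all 5 CON libraries. P2ry6 fell by 38.1% in MIA, or −0.69 ± 0.12 in log2 (SE, adjusted p = 0.00257 by edgeR). The excluded libraries stood at 247 in MIA 6, 255 in MIA 7 and 266 in CON 6, all under the lowest retained CON library. The call held with each of the 10 retained libraries left out in turn (adjusted p up to 0.0107) and with all 13 libraries (−0.58, adjusted p = 0.0201). It was lost with all 13 libraries except CON 1 and CON 2 (−0.42, adjusted p = 0.0628), where no member passed. Relative to the microglia list it was at −0.14 ± 0.092 (adjusted p = 0.213).

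P2ry14 encodes a receptor for UDP-glucose and other UDP-sugars. It had the fewest counts of the 9, 95 to 327 counts per library. It had 5.27, 3.68, 3.27, 3.98 and 7.63 CPM in MIA 1 to 5 and 5.49, 4.04, 3.38, 3.31 and 4.42 CPM in CON 1 to 5. MIA 5 was the highest of the 10 and MIA 3 the lowest, so the MIA range enclosed the CON range. The log2 change of 0.21 ± 0.27 (SE, adjusted p = 0.726 by edgeR) did not pass and was −0.023 without MIA 5. Each library marked excluded was above the 5 retained CON libraries, at CPM of 10.7 in MIA 6, 7.87 in MIA 7 and 6.50 in CON 6.

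P2rx4 and P2rx7 encode ATP-gated cation channels, and lie close together on chromosome 5. P2X7 opens at high ATP and is known as a trigger of interleukin-1 release. P2rx7 had 128, 132, 105, 115 and 117 CPM in MIA 1 to 5, and 180.1, 195, 162, 133 and 158 CPM in CON 1 to 5. The MIA libraries were all lower, though MIA 2 came within a few CPM of CON 4. P2rx7 fell by 28.0%, or −0.47 ± 0.10 in log2 (SE, adjusted p = 0.00917 by edgeR), and kept its call whichever retained library was removed (highest adjusted p = 0.0304). In the excluded libraries P2rx7 was 139 in MIA 6, 135 in MIA 7 and 124 in CON 6 CPM, so these MIA libraries were above all retained MIA libraries and CON 6 was below all retained controls. With all 13 libraries it was at −0.35 (adjusted p = 0.0573).

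P2rx4 stood at 81.4, 68.8, 57.3, 66.5 and 63.0 CPM in MIA 1 to 5 and at 79.7, 101, 103, 81.9 and 90.6 CPM in CON 1 to 5. MIA 1 lay above CON 1, and the other 4 MIA libraries below all CON libraries. In log2 this was −0.43 ± 0.10 (SE, adjusted p = 0.0175 by edgeR), and the adjusted p was 0.0570 without MIA 5. P2rx4 was 86.6 in MIA 6, 78.3 in MIA 7 and 83.9 in CON 6 CPM among the excluded libraries, of which MIA 7 alone lay under the lowest retained control. With all 13 libraries it was −0.33 (adjusted p = 0.0682). The P2rx4 to P2rx7 ratio within a library was 0.564 ± 0.0450 in MIA and 0.556 ± 0.0774 in CON (SD, n = 5 each).

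Adora3 encodes the A3 adenosine receptor, which couples to inhibitory G proteins. It had 38.9, 37.2, 43.0, 30.8 and 30.2 CPM in MIA 1 to 5, and 66.5, 75.7, 60.1, 45.2 and 48.9 CPM in CON 1 to 5. CON 1, CON 2 and CON 3 were the highest, and no MIA library reached CON 4, the lowest control. The 3 excluded libraries, with 40.2 in MIA 6, 44.6 in MIA 7 and 43.6 in CON 6 CPM, were below it too. Adora3 fell by 39.2%, or −0.72 ± 0.15 in log2 (SE, adjusted p = 0.00752 by edgeR). Its call survived the removal of any retained library (highest adjusted p = 0.0274) and held with all 13 libraries (−0.58, adjusted p = 0.0313), but not with all 13 except CON 1 and CON 2 (adjusted p = 0.104). Without those 2 controls alone it was −0.52 (adjusted p = 0.0210), and relative to the microglia list −0.16 ± 0.12 (adjusted p = 0.277). Adora3 overlaps Tmigd3 on the same strand, which had 1 to 40 counts, against 819 to 2079 for Adora3, and 2 of the 13 Adora3 values were not whole.

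Entpd1 encodes CD39, the ectonucleotidase that cuts ATP and ADP to AMP and so sets how much nucleotide the receptors see; vascular endothelium carries it as well as microglia. It was at 458, 444, 414, 368 and 377 CPM in MIA 1 to 5, and at 510.2, 618, 501, 439 and 549.5 CPM in CON 1 to 5. MIA 1 and MIA 2 lay above CON 4 and the other 3 MIA libraries below all controls. The excluded libraries had 464 in MIA 6, 476 in MIA 7 and 461 in CON 6 CPM, all within the range of the retained controls. Entpd1 had the smallest fall of the 7, −0.34 ± 0.10 in log2 (SE, adjusted p = 0.0383 by edgeR). It lost its call on removing CON 2, CON 3, CON 5 or any of MIA 3 to 5 (adjusted p up to 0.122). The call was also lost without CON 1 and CON 2 together (adjusted p = 0.0767), with the dissociation list as a covariate (0.0553) and with total counts (0.0660). With all 13 libraries Entpd1 was at −0.26 (adjusted p = 0.0995). Within its bounds lies Gm8783 on the same strand, with 0 to 176 counts. The endothelial list was higher in MIA, and its part in the Entpd1 level was not tested. Relative to the microglia list Entpd1 was −0.90 to −0.72 in log2 in the retained MIA and −1.12 to −0.93 in the retained CON libraries, with no overlap. The excluded libraries lay at −0.96 in MIA 6, −0.94 in MIA 7 and −0.85 in CON 6, each within the retained range of the other group. How many of all genes showed no overlap on that scale was not counted, and 54.1% were called higher there. The fit on that scale gave 0.25 (adjusted p = 0.0414) without CON 1 and CON 2, and 0.15 (adjusted p = 0.140) with all 13 libraries.

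Gpr34 encodes a microglial receptor for lysophosphatidylserine, a relative of the P2Y receptors that does not read nucleotides. It was at 827, 786, 639, 578 and 562 CPM in MIA 1 to 5, and at 683, 1109, 883, 893 and 908 CPM in CON 1 to 5. CON 1 was low, below MIA 1 and MIA 2, and CON 2 was the highest. Of the excluded libraries, with 823 in MIA 6, 933 in MIA 7 and 706 in CON 6 CPM, MIA 7 was above every retained MIA library and CON 6 within the retained CON range. In log2 this was −0.40 ± 0.14 (SE, adjusted p = 0.0900 by edgeR), which did not pass; it passed without CON 1 (−0.48, adjusted p = 0.0183), without both CON 1 and CON 2 (adjusted p = 0.0467) and with DESeq2 (adjusted p = 0.0326). Gpr34 lies within the gene Cask, which is read from the other strand and had a log2 change of 0.080 ± 0.13 (SE) without passing.

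**Figure D2:**
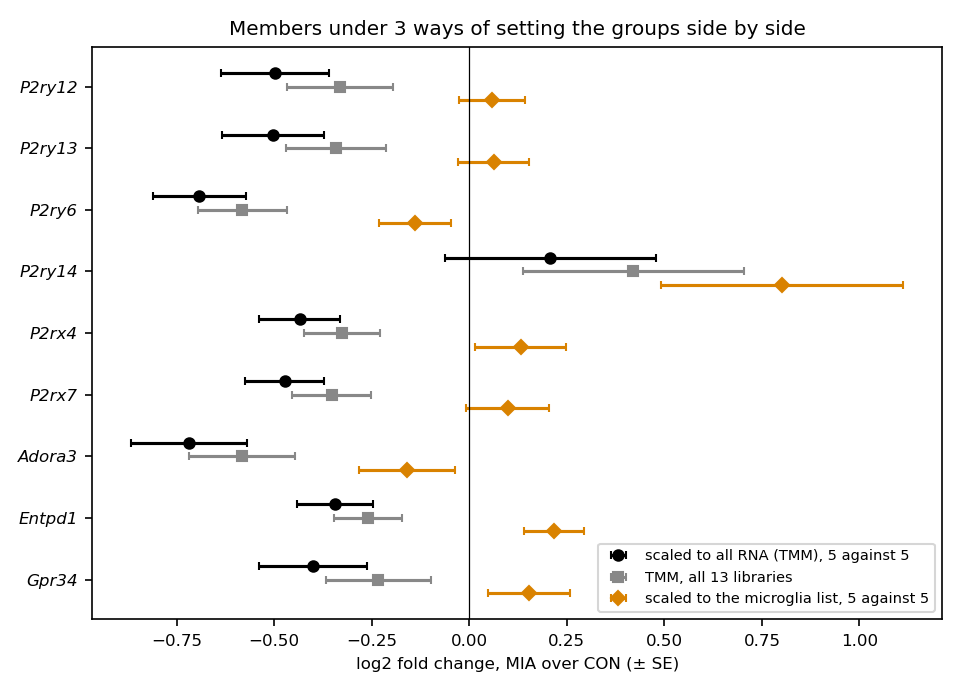
Log2 fold change of MIA over CON with its SE for each gene. Black circles are the 5 against 5 libraries scaled to all RNA, grey squares all 13 libraries, orange diamonds the 5 against 5 libraries scaled to the microglia list; on the last scale the values sit between −0.16 and 0.80.

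Per kilobase of annotated exon, P2ry12 was the most abundant member at 438 ± 71.2 CPM per kb in MIA and 619 ± 115 in CON (SD, n = 5 each). Gpr34 came next at 325 in MIA and 428 in CON, then P2ry13 at 225 and 319. P2ry6 had 78.6 in MIA and 127 in CON, and Entpd1 73.9 and 93.8; their library ranges met in both groups. The ranges of P2ry12 and Gpr34 met in both groups too, and those of Gpr34 and P2ry13 in CON. The ion channels and Adora3 were far lower: P2rx7 ran from 17.6 to 22.03 in MIA and 22.3 to 32.6 in CON. Adora3 ran from 8.10 to 11.5 in MIA and 12.1 to 20.3 in CON, and P2rx4 from 8.16 to 11.6 in MIA and 11.3 to 14.6 in CON, ranges that met. P2ry14 was at 0.431 in MIA and 0.374 in CON. The lengths are merged exons of GENCODE M21, which may differ from the annotation used for counting.

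Across all 13 libraries the members other than P2ry14 spanned less once the level of the microglia list was subtracted. Log2 CPM of P2ry12 spanned 1.17 over the 13 libraries, and its difference from the mean log2 CPM of the microglia list 0.39. For P2ry6 these spans were 1.19 and 0.58, for Adora3 1.32 and 0.54, and for Gpr34 0.98 and 0.69. P2ry14 went the other way, with 1.69 and 1.92. The microglia list itself was at 9.82 in MIA 6, 9.84 in MIA 7 and 9.70 in CON 6, between the retained MIA libraries (9.28 to 9.64) and the retained CON libraries (9.90 to 10.20). Members and list share libraries, depth and scaling, so this is a description.

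**Figure D3:**
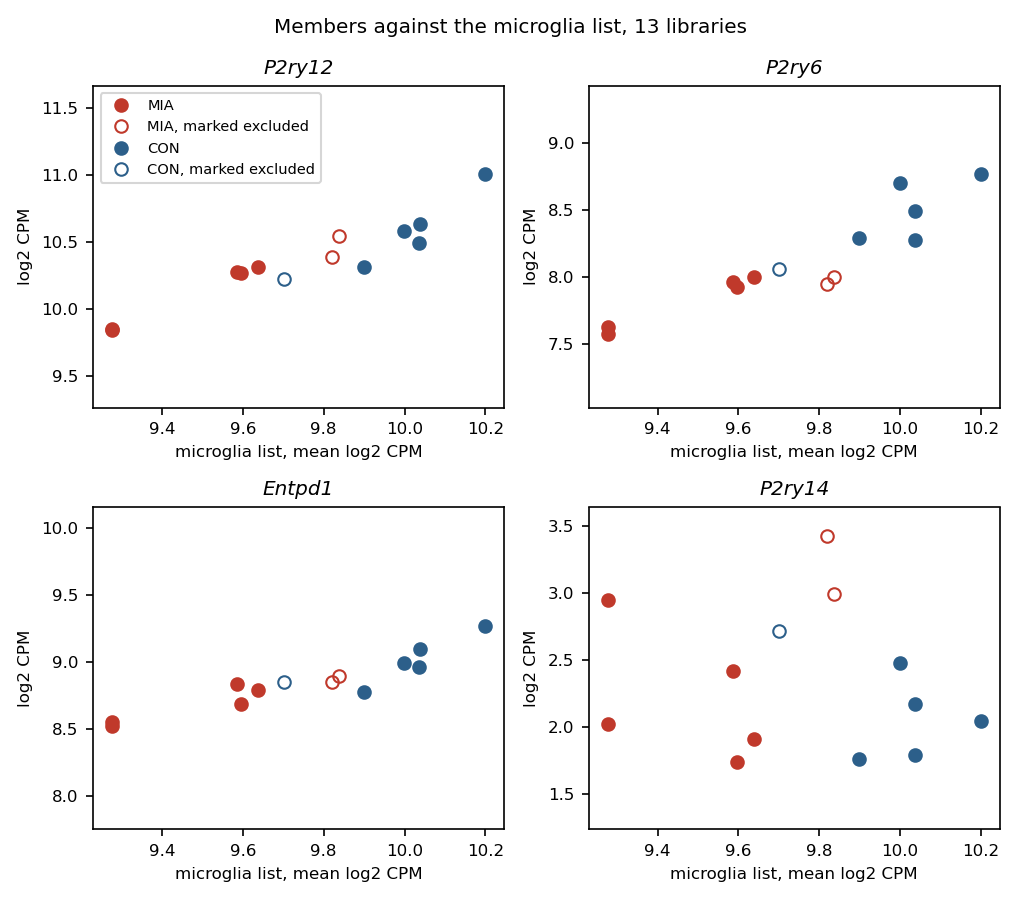
Log2 CPM of P2ry12, P2ry6, Entpd1 and P2ry14 against the mean log2 CPM of the 21 microglia genes in each of the 13 libraries. Filled points are retained and open points excluded libraries. P2ry12, P2ry6 and Entpd1 are low where the list is low, and P2ry14 is scattered.

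The genes whose profiles over the 13 libraries lay nearest to a member were found by the root-mean-square difference of centred log2 CPM, over 8747 other genes with a mean of at least 10 CPM. P2ry12 and P2ry13 were each other's nearest gene, at 0.0830, and so were P2ry6 and Adora3, at 0.0880. After these came the fructose transporter gene Slc2a5 and the Toll-like receptor chaperone gene Unc93b1 for P2ry12, Cd53 and Lgmn for P2ry13, Tnfaip8l2 and Ifngr1 for P2ry6, and Ifngr1 and Abcc3 for Adora3. Entpd1 was nearest to 2310011J03Rik (0.0401), Tapbp and Itm2b, P2rx7 to Il10rb (0.0651), Trf and Ptafr, and P2rx4 to AI413582 (0.0930), Rin2 and Dhrs3. Gpr34 was nearest to the tetraspanin gene Cd53 (0.0833), Ly86 and Tyrobp. P2ry14 had no close neighbour, with Col26a1 at 0.312, Lhfp and Trp53inp1.

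Beyond the 9, 64 other genes of nucleotide, adenosine and lysophosphatidylserine signalling were looked at in 9 lists. Of these 57 were tested, 6 rose and 10 fell in MIA, beside 5.75% and 4.58% of all genes, and their median log2 fold change was −0.069. Scaled to the microglia list, 24 were higher and 0 lower, where 54.1% of genes were higher. The 7 not tested were too scarce for the filter, and Entpd8 and Gpr174 had no count in any library, where 3 counts would be 0.0843 to 0.118 CPM.

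Among the other receptors, P2rx1, a further ATP-gated channel, fell by 27.3%, with 20.4 ± 2.83 CPM in MIA and 28.1 ± 3.34 in CON (SD, n = 5 each; edgeR adjusted p = 0.0270). Removal of any 1 of CON 2, CON 3, MIA 1, MIA 4 and MIA 5 ended its call (adjusted p up to 0.0824). Adora2a, an adenosine receptor gene of vessels, leukocytes and neurons, rose 2.18-fold, with 16.1 ± 3.38 CPM in MIA and 7.37 ± 2.05 in CON and no overlap between the groups (adjusted p = 0.00488). Adora3 and Adora2a therefore stood on opposite sides in the same libraries. What part the endothelial and neuronal lists, also higher in MIA, had in this was not tested. The ADP and ATP receptor genes P2ry1 and P2ry2 were scarce, with 1.77 ± 1.15 CPM in MIA and 1.88 ± 0.765 in CON for P2ry1 and 1.84 ± 0.771 CPM in MIA and 2.43 ± 0.916 in CON for P2ry2. P2rx6 had 0.958 ± 0.293 CPM in MIA and 2.04 ± 1.97 in CON, and Adora2b 4.73 ± 1.46 CPM in MIA and 3.89 ± 2.67 in CON. None of these 4 passed (edgeR adjusted p = 0.266 or more).

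Of 12 other nucleotide-degrading enzymes tested, Enpp3 rose at a low level, with 8.69 ± 2.12 CPM in MIA and 2.68 ± 1.09 in CON (adjusted p = 0.00368). Enpp2, which encodes autotaxin and is also made by choroid plexus, had 346 ± 209 CPM in MIA and 254 ± 212 in CON and did not pass. Entpd4 had 39.4 ± 3.68 CPM in MIA and 38.8 ± 2.75 in CON. Of 8 genes listed under adenosine uptake and breakdown, Dpp4 rose 2.72-fold (adjusted p = 0.000176). The lysosomal nucleoside transporter gene Slc29a3 fell by 30.4% (adjusted p = 0.00334). The plasma-membrane transporter gene Slc29a1 had 235 ± 36.3 CPM in MIA and 236 ± 27.6 in CON. In the nucleotide release list Calhm2 fell, with 5.83 ± 1.06 CPM in MIA and 10.1 ± 2.64 in CON (adjusted p = 0.0250), though not without any 1 of MIA 3 to 5 (adjusted p up to 0.0646) or without CON 1 and CON 2 together. The volume-regulated anion channel gene Lrrc8a had 61.4 ± 4.00 CPM in MIA and 58.4 ± 8.05 in CON and the pannexin gene Panx1 15.2 ± 3.28 CPM in MIA and 16.7 ± 1.67 in CON.

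Of the 13 genes of G protein coupling, 3 rose and 4 fell, beside 5.75% and 4.58% of all genes. Kcnk13 encodes THIK-1, the microglial potassium channel that P2Y12 signalling enhances, and it fell, with 52.7 ± 5.52 CPM in MIA and 84.8 ± 10.8 in CON (SD, n = 5 each). Its log2 change was −0.68 ± 0.10 (SE, adjusted p = 0.00106 by edgeR). Pik3r5, a regulator of phosphoinositide 3-kinase gamma, the brake gene Rgs10 and the arrestin gene Arrb2 fell by 0.64, 0.43 and 0.44 on the log2 scale. The Arrb2 call was lost on removing any 1 of CON 3, CON 5, MIA 1 and MIA 3 to 5 (adjusted p up to 0.121), and the Rgs10 call on removing MIA 4 or MIA 5 (up to 0.0657). Gnai1, Gna11 and Gnb1 rose by 1.48, 0.77 and 0.28. The parts of the endothelial and neuronal lists, also higher in MIA, were not tested. The inhibitory subunit gene Gnai1 had 8.26 ± 2.25 CPM in MIA and 2.96 ± 0.676 in CON. Scaled to the microglia list, Kcnk13 was at −0.12 ± 0.10 (adjusted p = 0.309).

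Of 8 genes that act downstream of P2X7, 2 fell, beside 4.58% of all genes. The inflammasome adaptor gene Pycard had 141 ± 17.4 CPM in MIA and 201 ± 29.0 in CON (adjusted p = 0.0109). The pore-forming Gsdmd had 58.8 ± 5.22 CPM in MIA and 77.4 ± 14.3 in CON (adjusted p = 0.0499). Gsdmd stood at the threshold and kept its call only on removing CON 1 or MIA 2 among the 10 retained libraries, with an adjusted p of up to 0.146 for the other 8. The cytokine gene Il1b had 274 ± 66.5 CPM in MIA and 255 ± 204 in CON and did not pass. The 5 controls ran from 39.1 to 489 CPM. The mean log2 CPM of the 8 genes was 5.65 in CON 1 and 5.88 in CON 2, against 6.44 to 6.59 in CON 3 to 5. It was 5.99 to 6.33 in the retained MIA libraries. What sets these controls apart was not tested. In the lysophosphatidylserine list Abhd12, the lipase that degrades this ligand of GPR34, fell by 33.1%, with 618 ± 66.3 CPM in MIA and 923 ± 94.3 in CON (adjusted p = 0.00174). Abhd16a, which makes the lipid, had 57.3 ± 4.05 CPM in MIA and 60.1 ± 6.30 in CON and did not pass. Relative to the microglia list Abhd12 was at −0.025 ± 0.075 (adjusted p = 0.790).

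**Figure D4:**
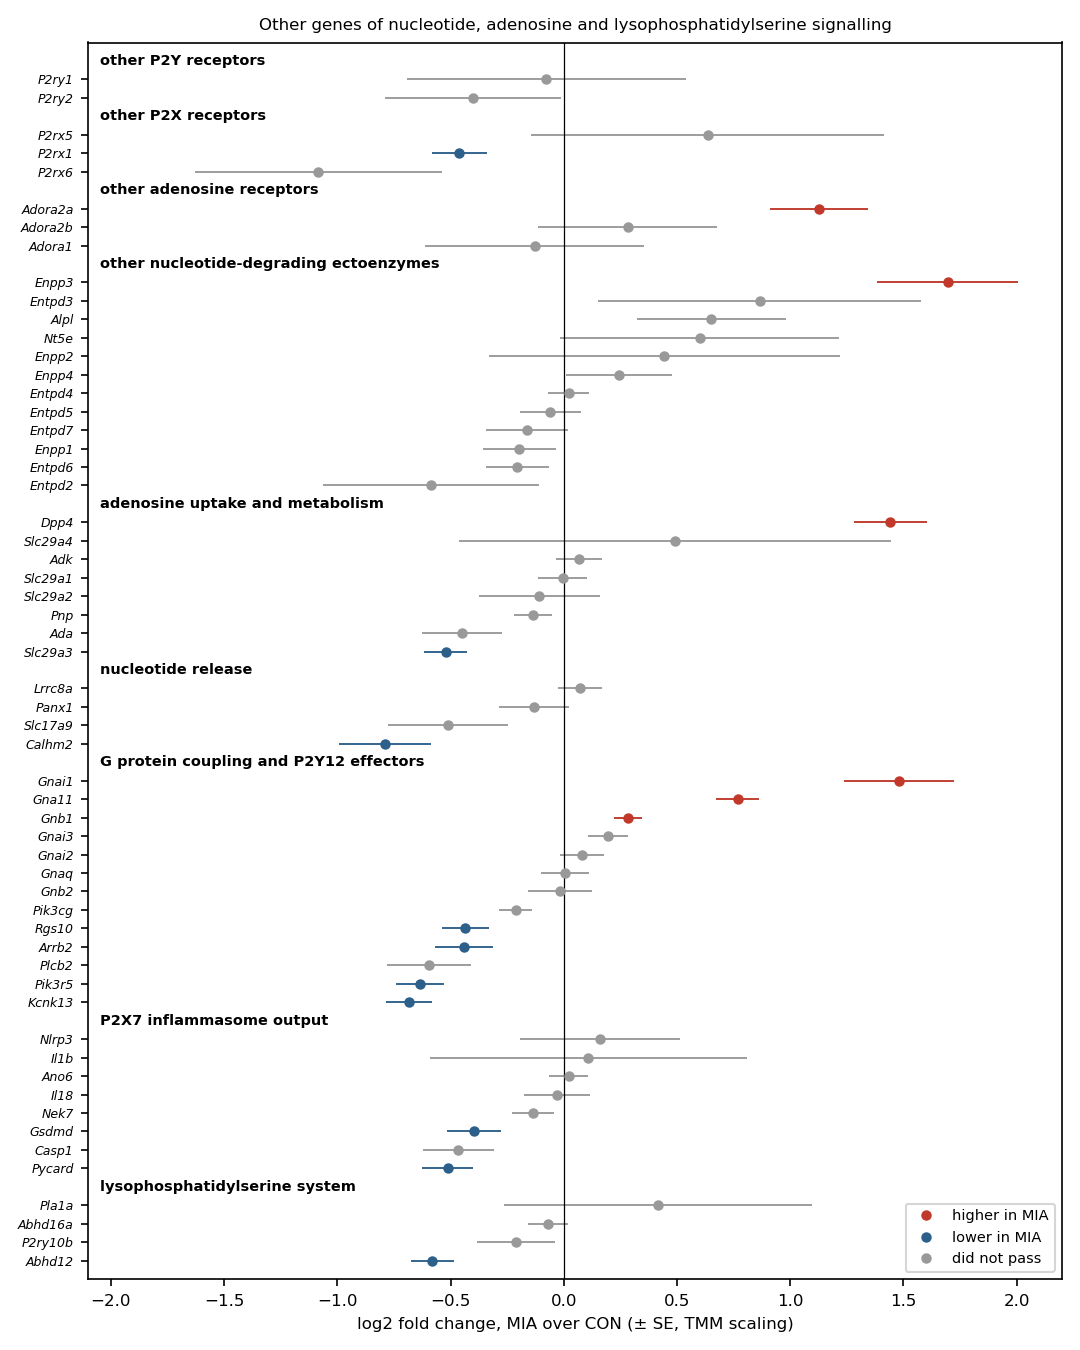
Log2 fold change of MIA over CON with its SE for the 57 tested genes of the 9 wider lists, under TMM scaling. Red genes rose, blue genes fell and grey genes did not pass; the highest is Enpp3 at 1.70.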

How the data were processed

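Per the labels, brains freed of meninges were digested with papain, cells were picked with CD11b beads, and cDNA was primed with oligo-dT and amplified as in Smart-Seq2, then tagmented with a kit that does not mark strand. Expected counts (estimated counts) of every gene in every library were deposited by the authors as 1 table, with no scaling between libraries. RSEM, STAR and DESeq2 are named in the submitters' processing notes without role or version. Build and annotation were not given in the sources used here. Of 55487 gene IDs, 55141 matched a symbol without regard to version. Of nonzero values 20.6% were not whole, and all were rounded. Reads carried no molecular identifiers.

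The tests used edgeR 4.0.16 under R 4.3.3: a robust quasi-likelihood fit with group as its term, TMM factors and the filterByExpr filter, over 15511 genes, with Benjamini-Hochberg adjustment at 0.05. Printed adjusted p-values are from edgeR unless another tool is named. SE is the log2 fold change over the square root of F. CPM uses TMM factors over 13 libraries, and log2 CPM a prior count of 2. Microglia list scaling makes the mean log2 (CPM + 1) of the 21 markers equal in all libraries. Alternatives were other scalings, filters, a replicate block, a covariate, DESeq2 1.42.0, limma-voom 3.58.1 and other sets of libraries. Named were all 9 members and, of each wider list, genes past the threshold and the 2 most abundant. Members and lists were chosen with earlier results of these data known. The steps were tested on simulated data.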

Additional observations from a re-analysis of the deposited data

Results flagged for a closer look

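P2ry14, the receptor gene for UDP-sugars, was above all 5 retained CON libraries (3.31 to 5.49 CPM) in each library whose title marks it as excluded: 10.7 CPM in MIA 6, 7.87 CPM in MIA 7 and 6.50 CPM in CON 6. These libraries enter none of the 5 against 5 comparisons. The list of pericyte and fibroblast markers had a mean log2 CPM of 6.60, 6.60 and 6.52 in MIA 6, MIA 7 and CON 6, with none of its 10 genes at 0, against 5.79 to 6.32 in the retained MIA and 5.45 to 5.94 in the retained CON libraries, and its part in the P2ry14 level was not tested.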

How the results depend on the processing

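The count of members that changed, 7, all lower, was 7 with RLE scaling, no filter, the strict filter of 10 CPM in 5 libraries, limma-voom and the replicate block, 6 with total counts or without CON 1 and CON 2, 8 with DESeq2 and 5 with the dissociation list as a covariate. With all 13 libraries 2 (0 higher, 2 lower) members changed, of 659 (424 higher, 235 lower) genes and 7 (3 higher, 4 lower) wider purinergic genes. With all 13 except CON 1 and CON 2 the counts were 0 (0 higher, 0 lower), 90 (53 higher, 37 lower) and 1 (0 higher, 1 lower). With the microglia list scaling they were 2 (2 higher, 0 lower), 8400 (8397 higher, 3 lower) and 24 (24 higher, 0 lower). 2 further fits were chosen after seeing the data. Without CON 1 and CON 2, that scaling gave 2 (2 higher, 0 lower) members, beside 45.2% of all genes higher. With all 13 libraries it gave 0 (0 higher, 0 lower) members, beside 31.4% of all genes higher. Leaving out 1 retained library gave 3 to 8 members, 3 to 8 of them lower and 0 higher. It gave 1037 to 2262 genes (672 to 1238 higher, 365 to 1024 lower) and 11 to 19 wider genes (6 higher, 5 to 13 lower). Members numbered 4 without CON 5, MIA 3 or MIA 4 and 3 without MIA 5. The sign turned with the microglia list scaling in log2 fold changes of P2ry12 0.058, P2ry13 0.062, P2rx4 0.13, P2rx7 0.10, Entpd1 0.22, Gpr34 0.15, P2rx1 0.10, Slc29a3 0.038, Arrb2 0.12, Rgs10 0.12, Pycard 0.038, Gsdmd 0.15. That scaling divides by genes which themselves fell. Without CON 1 and CON 2 it gave P2ry12 0.15, P2ry13 0.11, P2rx4 0.079, P2rx7 0.18, Entpd1 0.25, Gpr34 0.10, and with all 13 libraries P2ry12 0.070, P2ry13 0.064, P2rx4 0.075, P2rx7 0.067, Entpd1 0.15, Gpr34 0.16. P2ry14 ran from −0.023 without MIA 5 to 0.33 without CON 1. Where no value shows it, the cause was not tested. Same-numbered MIA and CON libraries had correlations of 0.0580 to 0.302 between deviations from their group means, and 2 of 5 MIA libraries correlated best with their own number, so the numbers were not taken as pairs. The replicate block changed no call of a member. Counting error weighs most on P2ry14, with 95 to 327 counts a library.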
